A study of Canis lupus familiaris with 8 samples.

Results

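Intermediate filaments and desmosomes form a continuous mechanical network through an epithelial sheet. Their transcripts are described here in a dog kidney epithelial line held under strain. The genes are 4 keratins (KRT7, KRT8, KRT18 and KRT19), vimentin (VIM) and 5 desmosome genes (DSP, DSG2, DSC2, PKP2 and PKP3). They were taken by name from the rows of the count table. The rule uses no measured value, but the set was proposed with earlier results of these data known. All 10 were found among the 37952 genes of the table, and all 10 passed the filter on low counts that left 14571 genes for testing.

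Keratins are built as obligate pairs of a type I and a type II protein. KRT18 and KRT19 are type I, KRT7 and KRT8 are type II, and these 4 are the keratins typical of single-layered epithelia such as kidney tubules. Vimentin is a type III filament protein best known from mesenchymal cells, and it is also made by many epithelial lines in culture. In a desmosome, the cadherins desmoglein (DSG) and desmocollin (DSC) join neighbouring cells, the armadillo proteins plakoglobin and plakophilin (PKP) bind their tails, and desmoplakin (DSP) ties the plaque to the filaments.

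RNA was sequenced from MDCK GII cells (Madin-Darby canine kidney) grown to a monolayer overnight on a collagen-coated elastic membrane. Both groups shared the line, the culture and the polyA-selected stranded libraries. The control group had 4 wells, labelled Control, and the stretch group had 4 wells held for 2 hours at 18% strain, equal in both in-plane directions. The labels describe the wells of a group as technical replicates of 1 line, so p-values measure the spread between wells and not between independent cultures. Total counts lay between 27047358 and 32478887 per well. Levels are given as CPM, the count scaled to library size with TMM factors. Where genes are compared with each other, they are also divided by exon length in kilobases (RPKM).

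The wells had the profile of an epithelium. EPCAM and CDH1, adhesion molecules of epithelial cells, stood at 375 and 144 RPKM over the 8 wells. Of 8 fibroblast markers, 4 (among them COL1A2 and COL3A1) had 0 counts in every well, and the summed level of the list was 0.296 to 0.625 RPKM without strain and 0.472 to 0.561 with it. PTPRC, the pan-leukocyte marker, had 0 counts in every well, and the 6 leukocyte markers summed to 6.29 to 7.67 RPKM in control and 6.34 to 7.24 in stretch wells. The 6 endothelial markers summed to 0.343 to 0.490 RPKM in control and 0.273 to 0.472 in stretch wells, and the 4 muscle markers to 1.41 to 1.57 and 1.42 to 2.05. The 8 squamous markers, a list that includes DSG3 and DSC3, summed to 25.9 to 40.3 RPKM in control and 29.0 to 38.7 in stretch wells, and KRT1 had 0 counts in every well. The 11 kidney epithelial markers, which include KRT8 and KRT18, summed to 3125 to 3464 and 3278 to 3367 RPKM. KRT8 and KRT18 alone stood at 1375 and 854 RPKM over the 8 wells. CDH16, another cadherin of this list, was low, at 0.441 RPKM and 20 to 59 counts per well. In bulk RNA, fewer cells making a transcript and less RNA per cell cannot be told apart.

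The filament genes were among the most abundant transcripts of the resting monolayer, and the 5 desmosome genes ranked below all of them. By mean RPKM in control wells, VIM ranked 24 and KRT8 ranked 27 of 14571 tested genes, followed by KRT18 at 73, KRT19 at 107 and KRT7 at 117. The highest desmosome gene of the 10 was DSG2 at rank 897, and PKP3 was the lowest at rank 2769. Together the 10 genes took 1.00 ± 0.0616% of the library in control wells and 1.00 ± 0.0423% after stretch (SD, n = 4 each).

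Over the 8 wells the mean RPKM was 1451 for VIM, 1375 for KRT8, 854 for KRT18, 724 for KRT19, 688 for KRT7, 96.7 for DSG2, 47.2 for DSP, 41.7 for PKP2, 39.8 for DSC2 and 32.9 for PKP3. VIM exceeded KRT8 in 8 of 8 wells, but the ranges over wells overlapped. KRT18 exceeded KRT19 in 7 of 8 wells, and KRT19 exceeded KRT7 in 6 of 8, so the order of these neighbours was not the same in every well. PKP2 and DSC2 also changed places, with PKP2 higher in 6 of 8 wells. KRT8 and KRT18, KRT7 and DSG2, and DSG2 and DSP did not overlap in any well.

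**Figure D1:**
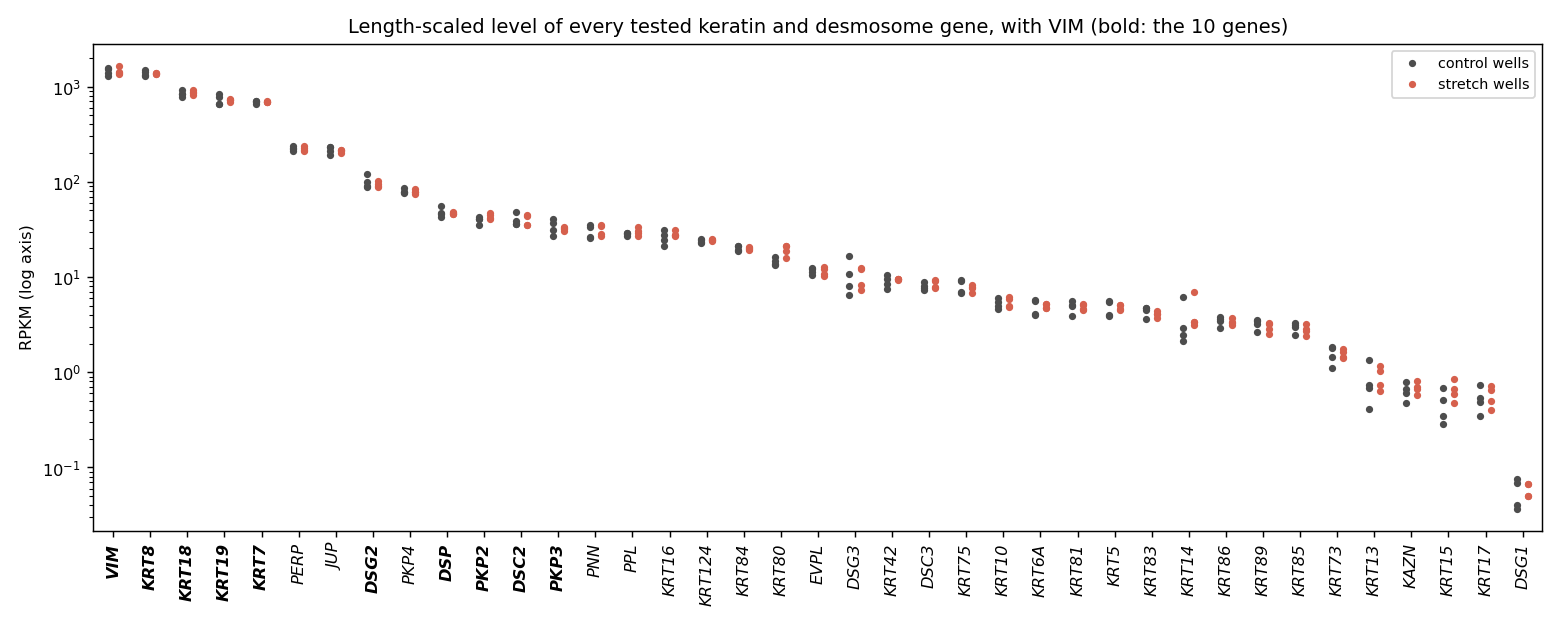
Length-scaled level (RPKM, log axis) of each tested keratin and desmosome gene and of VIM, with 1 point per well (4 control, 4 stretch) and the 10 genes in bold. VIM and the 4 keratins lie between 658 and 1639 RPKM, above all other genes drawn, and the control and stretch points of each gene overlap or lie close together.

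Neither the filament genes nor the desmosome genes passed the test for a change after 2 hours of strain. In edgeR's quasi-likelihood test of the 4 stretch against the 4 control wells, 0 of the 10 genes had a Benjamini-Hochberg adjusted p under 0.05, against 0% of all 14571 tested genes. At an unadjusted p under 0.05 the count was also 0 of 10, where the share over all tested genes was 3.97%. With the replicate number as a block, which compares same-numbered wells, 0 of 10 passed against 0.7% of all genes, and 1 of 10 (PKP2) had an unadjusted p under 0.05 against 8.89% of all genes. Without the block, limma-voom also called 0 of all genes and DESeq2 called 0.275%, none of them among the 10 (0.995% with the block, again none of the 10). The log2 changes of the 10 genes ran from -0.08 to 0.11, with a median of -0.0015 beside -0.0032 over all tested genes.

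The intervals around these changes were narrow for the filament genes. For the 4 keratins and VIM, the separate 95% confidence intervals without the block lay within 0.878-fold and 1.11-fold of the control level. Over all 10 genes they lay within 0.796-fold and 1.19-fold. The intervals are per gene and are not adjusted for their number.

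**Figure D2:**
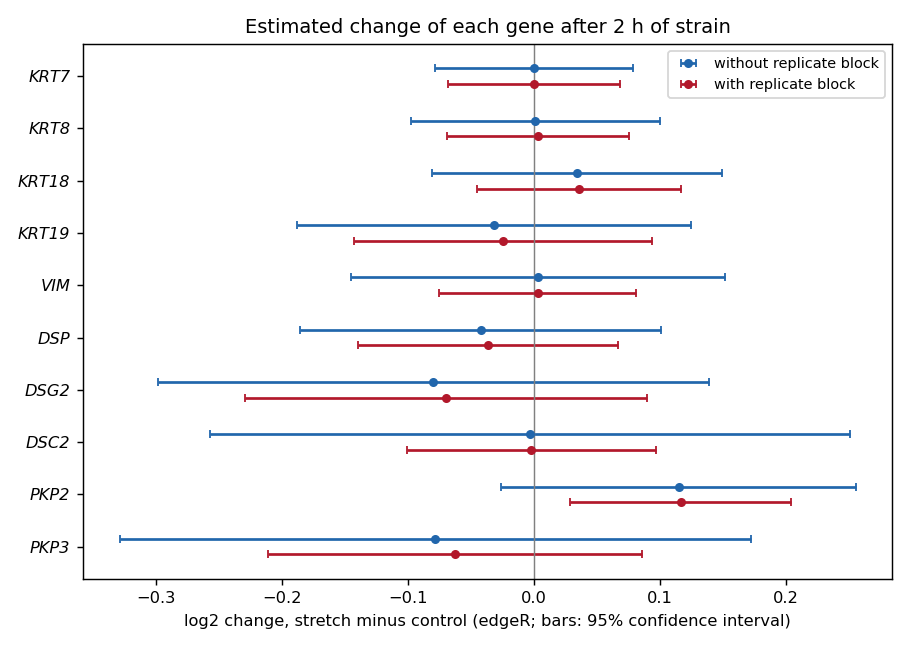
Log2 change of each gene (stretch minus control, edgeR), as points with 95% confidence intervals, without and with the replicate block. All intervals include 0 except that of PKP2 with the block, which runs from 0.029 to 0.204.

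KRT8, the principal type II keratin of simple epithelia, lies on chromosome 27 (44422008 to 44429675, minus strand). It had 2375, 2284, 2517 and 2653 CPM in control replicates 1 to 4 and 2406, 2449, 2492 and 2488 CPM in stretch replicates 1 to 4. The 4 stretch wells all fell inside the range of the control wells. Its log2 change was 0.0011 ± 0.046 (SE; edgeR, adjusted p = 0.9995), and the SD was 162 CPM in control and 40.3 CPM in stretch wells.

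KRT18, its usual type I partner, is its neighbour on chromosome 27 (44457950 to 44461835, plus strand). It had 1198, 1120.2, 1199.6 and 1331 CPM in control replicates 1 to 4 and 1172, 1222, 1312 and 1259 CPM in stretch replicates 1 to 4. The groups overlapped, and 2 of 4 same-numbered pairs were higher after stretch. On the log2 scale the difference was 0.03 ± 0.053 (SE; edgeR, adjusted p = 0.9995).

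KRT7, a type II keratin of ducts and other simple epithelia, lies in the same region of chromosome 27 (43825075 to 43839789, plus strand). It had the smallest spread of the 10 genes among control wells, with 1129, 1114, 1068 and 1143 CPM in control and 1103, 1144, 1103 and 1104 CPM in stretch replicates 1 to 4. All 8 wells thus lay within 1068 and 1144 CPM, and the coefficient of variation was 2.92% among control and 1.81% among stretch wells. Its interval was the narrowest of the 10, from 0.947-fold to 1.06-fold, and its mean was 1114 CPM in control and 1113 CPM in stretch wells.

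KRT19, the smallest keratin, lacks the tail domain of its relatives. It lies on chromosome 9 (21117527 to 21121798, plus strand). It had 1018, 1020.3, 1297 and 1191 CPM in control and 1062, 1132, 1122 and 1115 CPM in stretch replicates 1 to 4. Control replicates 3 and 4 were above every stretch well, while control replicates 1 and 2 were below every stretch well. Its log2 change was -0.03 ± 0.071 (SE; edgeR, adjusted p = 0.9995).

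The counts of KRT19 were shadowed by those of another gene model. LOC119876943 is annotated as a protein-coding gene with 1 exon on chromosome 13 (49217106 to 49218478, minus strand), whereas KRT19 has 6 exons. In control replicates 1 to 4, KRT19 had 27736, 31524, 38327 and 38313 counts and LOC119876943 had 27218, 30809, 37439 and 37452. In stretch replicates 1 to 4, KRT19 had 30919, 30638, 32704 and 35930 counts and LOC119876943 had 30194, 29972, 32130 and 35308. The second gene therefore held 97.7% to 98.3% of the count of the first in every well.

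The ratio varied by 0.265% (coefficient of variation over 8 wells), whereas independent counting of so many reads would alone give 0.780%. For the other keratin, vimentin and desmosome genes of the 10, the steadiest ratio to any gene with a mean of at least 100 counts varied by 1.28%. How reads that match both places were counted is not given in the sources used here, so the level of KRT19 and its place in the order of keratins are uncertain. The comparison of stretch with control gave nearly the same value for both models, with a log2 change of -0.03 for LOC119876943.

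**Figure D3:**
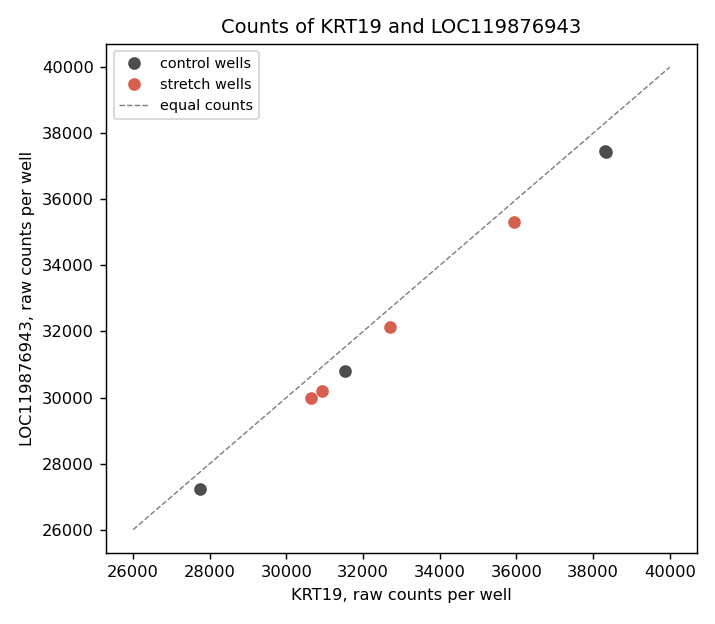
Raw counts of KRT19 (x axis) and LOC119876943 (y axis) in the 4 control and 4 stretch wells, with the line of equal counts dashed. All 8 points lie just under that line, at 97.7% to 98.3% of the KRT19 count.

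VIM lies on chromosome 2 (18621519 to 18629571, minus strand). It had 2612, 2432, 2899 and 2848 CPM in control and 2537, 2609, 3053 and 2618 CPM in stretch replicates 1 to 4. Replicate 3 was the highest well of both groups, and the groups overlapped. The estimated log2 change was 0.0033 ± 0.068 (SE; edgeR, adjusted p = 0.9995). Of the 8 fibroblast markers, PDGFRA, a growth factor receptor, had 53 to 113 counts per well, COL1A1, PDGFRB and THY1 had at most 2, 5 and 8, and the other 4 had 0. Their part in the VIM level was not tested.

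The composition of the filament network at the RNA level was nearly the same in both groups. Per kilobase, KRT8 made up 37.8 ± 0.291% of the 4 keratins in control and 37.8 ± 0.321% in stretch wells, KRT18 made up 23.2 ± 0.713% and 23.7 ± 0.681%, KRT19 made up 20.1 ± 1.62% and 19.7 ± 0.245%, and KRT7 made up 19.0 ± 1.25% and 18.9 ± 0.499% (SD, n = 4 each). The 4 keratins were 96.2 ± 0.152% and 96.0 ± 0.138% of the summed level of all keratin genes. Type I transcripts (KRT18 and KRT19) stood to type II transcripts (KRT7 and KRT8) at 0.763 ± 0.0363 in control and 0.765 ± 0.0201 in stretch wells. VIM stood to the 4 keratins at 0.398 ± 0.0136 and 0.398 ± 0.0287. The shares and the ratios that include KRT19 rest on its level, which is uncertain as described above. KRT18 stood to KRT8, a ratio that does not use it, at 0.614 ± 0.0158 in control and 0.628 ± 0.0207 in stretch wells. These within-well values do not depend on library scaling. The difference between groups was smaller than both SDs for the shares of KRT7, KRT8 and KRT18 and for the ratios of type I to type II, VIM to keratins and KRT18 to KRT8. For KRT19 it exceeded the SD of the stretch wells but not that of the control wells, and the share of the 4 keratins together was lower after stretch by more than both SDs.

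Among the desmosomal cadherins, DSG2 is the desmoglein of simple epithelia. It lies on chromosome 7 (57958817 to 58007069, minus strand). It had 465, 456, 631 and 513 CPM in control and 456, 473, 494 and 529.6 CPM in stretch replicates 1 to 4. Control replicate 3 was the highest of the 8 wells, and the other 7 lay between 456 and 529.6 CPM. Its log2 change was -0.08 ± 0.098 (SE; edgeR, adjusted p = 0.9995), and without control replicate 3 it was 0.03.

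DSC2, the matching desmocollin of simple epithelia, lies in the same cluster on chromosome 7 (58345978 to 58379188, plus strand). It had 188, 188, 249 and 200.3 CPM in control and 181, 184, 229.9 and 229 CPM in stretch replicates 1 to 4. Replicates 1 and 2 of both groups were lower than replicates 3 and 4 of both groups. The estimated log2 change was -0.0028 ± 0.113 (SE; edgeR, adjusted p = 0.9995), and 0.10 without control replicate 3.

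The cadherin pair of stratified epithelia was present at a lower level. DSG2 held 90.7 ± 2.25% of the desmoglein transcripts per kilobase in control and 90.4 ± 1.83% in stretch wells, and DSG3 held nearly all of the rest (9.27 ± 2.26% and 9.53 ± 1.83%). DSC2 held 83.2 ± 0.758% of the desmocollin transcripts in control and 82.4 ± 0.504% in stretch wells, and DSC3 held 16.8 ± 0.809% and 17.5 ± 0.530% (SD, n = 4 each). DSC2 stood to DSG2 at 0.402 ± 0.0098 in control and 0.422 ± 0.0351 in stretch wells, with 2 of 4 pairs higher.

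DSP, the plakin that binds the filaments, lies on chromosome 35 (8773585 to 8819012, plus strand). It had 403, 428, 519.8 and 439.6 CPM in control and 428, 424, 437 and 449 CPM in stretch replicates 1 to 4. The stretch wells spanned 424 to 449 CPM, inside the control range. The log2 change was -0.04 ± 0.066 (SE; edgeR, adjusted p = 0.9995), and 0.04 without control replicate 3. Per kilobase, DSP stood to the sum of DSG2 and DSC2 at 0.346 ± 0.017 in control and 0.349 ± 0.0208 in stretch wells.

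PKP2, the most widely expressed plakophilin and the one made in heart as well as in simple epithelia, had the largest positive estimate of the 10 genes. It lies on chromosome 27 (30463876 to 30551090, minus strand). It had 141, 162, 163 and 172 CPM in control and 161, 167, 186 and 176 CPM in stretch replicates 1 to 4. Control replicate 1 was the lowest well, the groups overlapped, and the stretch well was the higher one in 4 of 4 pairs, which was so for 8.45% of all tested genes.

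The mean of PKP2 was 159.5 ± 13.4 CPM in control and 173 ± 10.9 CPM in stretch wells (SD, n = 4 each). The log2 change was 0.11 ± 0.065 (SE; edgeR, adjusted p = 0.9995), and with the replicate block 0.12 ± 0.041 (adjusted p = 0.330). It did not pass in either fit. Within replicates 1 and 2 alone and within replicates 3 and 4 alone the estimate was 0.12 in both, and without control replicate 1 it was 0.06.

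PKP3, a plakophilin found along with PKP2 in most simple epithelia, lies on chromosome 18 (25889879 to 25899124, plus strand). It had 77.4, 89.5, 118 and 107 CPM in control and 87.7, 92.1, 97.4 and 94.3 CPM in stretch replicates 1 to 4. The control wells spread on both sides of the stretch wells, with a coefficient of variation of 18.4% against 4.39%. The log2 change was -0.08 ± 0.113 (SE; edgeR, adjusted p = 0.9995), and 0.02 without control replicate 3.

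Per kilobase, PKP3 stood to PKP2 at 0.755, 0.758, 0.989 and 0.857 in control and 0.746, 0.755, 0.718 and 0.734 in stretch replicates 1 to 4. The stretch well was the lower one in 4 of 4 pairs, and the groups met at about the same value in control replicates 1 and 2 and stretch replicate 2. The mean ratio was 0.840 ± 0.111 in control and 0.738 ± 0.0162 in stretch wells, a difference smaller than the control SD. PKP4, a relative that is also found at adherens junctions, held most of the plakophilin level, with 52.0 ± 2.86% and 51.1 ± 1.40%, against 26.1 ± 0.939% and 28.1 ± 1.01% for PKP2 (SD, n = 4 each). The share of PKP2 thus differed by more than either SD; as a ratio of the genes above, it has no test of its own.

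**Figure D4:**
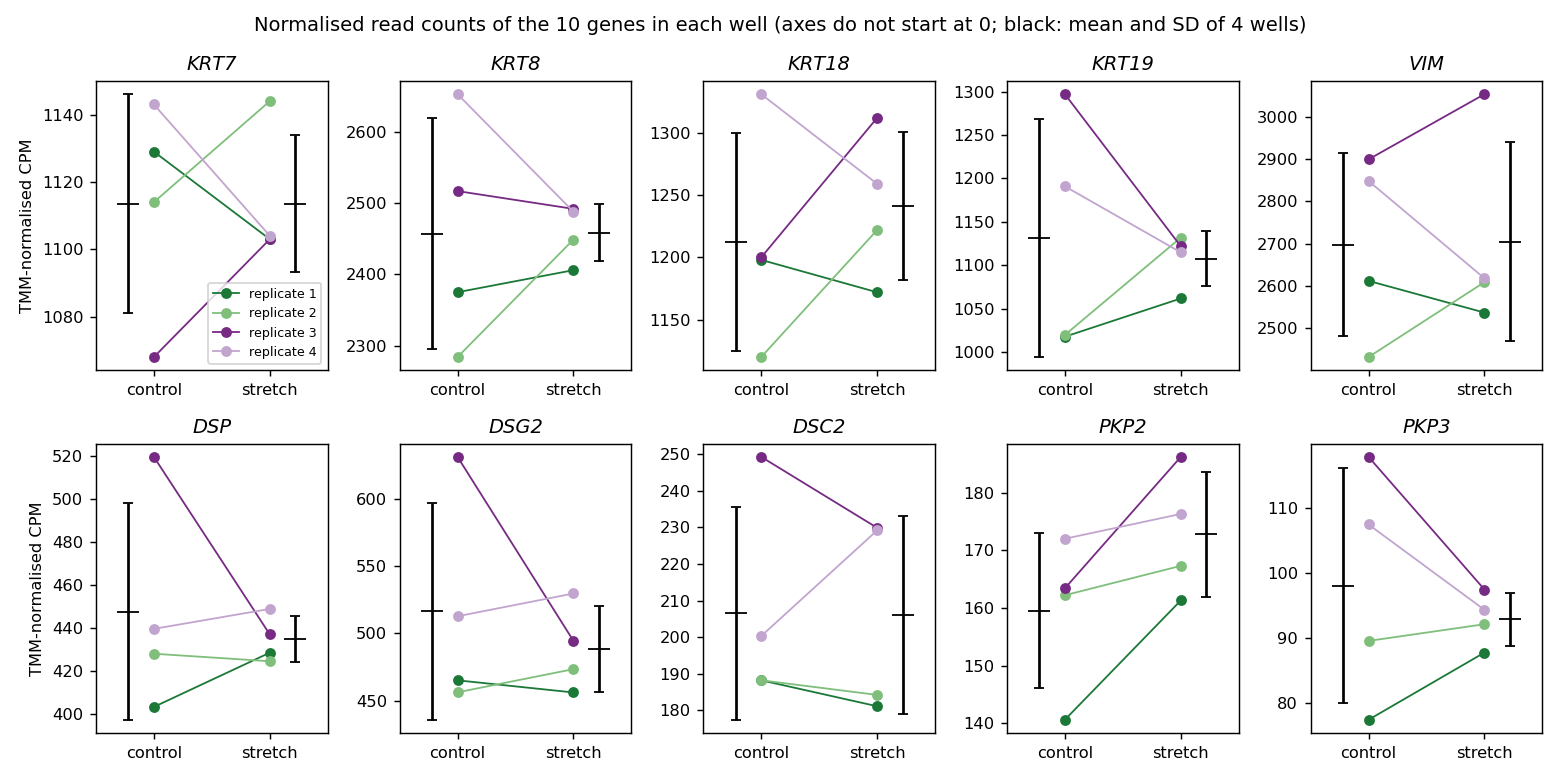
CPM of each of the 10 genes in control and stretch wells, with lines joining same-numbered wells and black bars for the mean and SD of 4 wells; the axes differ by gene and do not start at 0. Rising and falling lines mix in every panel but that of PKP2, where all 4 rise, and control replicate 3 is the top point for KRT19, DSP, DSG2, DSC2 and PKP3.

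Control replicate 3 was the highest of the 8 wells for 5 of the 10 genes (KRT19, DSP, DSG2, DSC2 and PKP3), against 18.1% of all tested genes, and the lowest for KRT7. Its total of 29950328 counts lay within the range of the other wells. Leaving out the highest control well of a gene raises its estimate by construction. Without this well the log2 changes of these 5 genes lay between 0.02 for PKP3 and 0.10 for DSC2. In that fit 0 of the 10 genes passed, against 12 of all 14734 genes tested in it (edgeR). What sets this well apart was not tested.

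The wells were also split into replicates 1 and 2 and replicates 3 and 4, a division that the labels do not give. Among the keratins, VIM and the desmosome genes named at the start, KRT19 and PKP3 differed most between the divisions. Their estimates changed sign, but the difference did not pass its test. In replicates 1 and 2 alone the log2 change was 0.11 for KRT19 and 0.11 for PKP3, and in replicates 3 and 4 alone it was -0.15 and -0.23. None of these passed (edgeR, adjusted p from 0.301 to 0.826), against 0.348% of all genes tested in replicates 1 and 2 and 0.169% in replicates 3 and 4. The difference between the divisions, tested in 1 model and added after seeing the data, was -0.26 ± 0.084 (SE) for KRT19 and -0.34 ± 0.102 for PKP3 (edgeR interaction, adjusted p = 0.7095 and 0.687), and 0% of all tested genes passed this test. The labels do not say what equal numbers share.

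**Figure D5:**
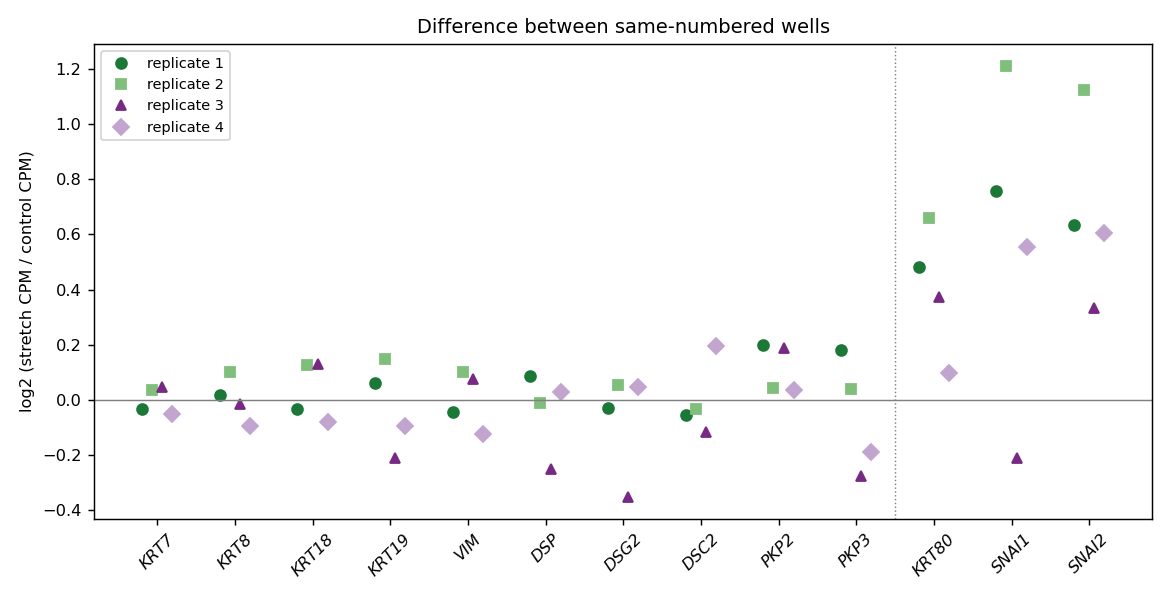
Log2 ratio of stretch to control CPM in each same-numbered pair of wells, for the 10 genes (left of the dotted line) and for KRT80, SNAI1 and SNAI2 (right). The points of the 10 genes scatter around 0 between -0.35 and 0.20, whereas KRT80 and SNAI2 lie above 0 in all 4 pairs and SNAI1 in 3 of 4.

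Keratins outside the simple-epithelial group were mostly silent or low. Of the 55 other keratin genes in the table, 21 had 0 counts in every well and 19 were tested. The most abundant were KRT16, an inducible keratin of epidermis, at 27.3 RPKM, KRT124 at 24.2 and KRT84, a hair keratin, at 20.1. Keratin genes are close relatives, and the treatment of reads that fit several of them is not given in the sources used here. Levels this far below the 4 main keratins are therefore uncertain. KRT5 and KRT6A each had 246, 380, 258 and 406 counts in control replicates 1 to 4. In stretch replicates 1 to 4 KRT5 had 301, 309, 332 and 331 and KRT6A had 301, 307, 332 and 331. The 19 tested genes may thus not be separate measurements. None of the 19 passed with or without the replicate block (edgeR), 1 (without) and 3 (with) had an unadjusted p under 0.05, where the shares over all tested genes were 3.97% and 8.89%, and their median log2 change was 0.02.

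KRT80, a type II keratin that is found in many epithelia near desmosomes and cell borders, had the smallest p of these in both fits and came closest to the threshold. It lies on chromosome 27 (43769282 to 43790971), beside KRT7. It had 49.9, 49.1, 59.6 and 54.2 CPM in control and 69.7, 77.5, 77.2 and 58.0 CPM in stretch replicates 1 to 4. The stretch well was the higher one in 4 of 4 pairs, which was so for 8.45% of all tested genes. Only stretch replicate 4 fell within the range of the control wells.

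The log2 change of KRT80 was 0.41 ± 0.094 (SE; edgeR, adjusted p = 0.460 without the block). With the replicate block it was 0.40 ± 0.077, with an adjusted p of 0.0510 in edgeR and 1.2e-04 in DESeq2. DESeq2 without the block gave an adjusted p of 0.0326. The estimate was 0.57 in replicates 1 and 2 alone (edgeR, adjusted p = 2.8e-04) and 0.25 in replicates 3 and 4 alone (adjusted p = 0.808). KRT15, a keratin of basal cells, had the next smallest p without the block, at 13 to 42 counts per well and a log2 change of 0.50 ± 0.313 (SE; edgeR, adjusted p = 0.9995). With the block, KRT14, another basal keratin, and KRT16 came next after KRT80, with log2 changes of 0.33 and 0.14 (edgeR, adjusted p = 0.381 and 0.525).

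The remaining structural genes gave no calls in either edgeR fit, without or with the replicate block. Of all tested genes, 0% and 0.7% passed there, so few calls could come from lists this short. Of 10 tested desmosome genes outside the main group, 5 had a log2 change above 0 and 5 below, within -0.07 and 0.10. Over all tested genes, 7018 were above 0 and 7553 below. Of the 10, 0 passed in either edgeR fit. PERP, a membrane protein of desmosomes, JUP (plakoglobin) and PKP4 were the most abundant, at 223, 212.5 and 79.2 RPKM. PPL, the plakin periplakin, and DSC3 had the smallest p in this list without the block, with log2 changes of 0.07 and 0.08 (edgeR, adjusted p = 0.9995 each). PKP1, the plakophilin of stratified epithelia, had at most 1 count per well.

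Of the other filament and linker genes, 11 of 19 were tested and 0 passed in either edgeR fit. The shares over all tested genes were 0% without and 0.7% with the block. KRTCAP2, a subunit of the machinery that attaches sugars to proteins, had 116 RPKM, PLEC, the linker plectin, 105, and CSNK1A1, a kinase that acts on keratin filaments, 61.0. SYNM, a large filament protein, and FAM83H, which recruits that kinase to keratins, had the smallest p without the block, with log2 changes of 0.35 and -0.09 (edgeR, adjusted p = 0.9995 each). DES, the filament gene of muscle, had between 3 and 20 counts per well and was not tested.

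All 7 hemidesmosome genes, which anchor keratins to the basement membrane, were tested, with log2 changes from -0.04 to 0.08 without the block. In either edgeR fit 0 passed, against 0% of all tested genes without and 0.7% with the block. COL17A1 (120.5 RPKM), CD151 (109) and ITGB4 (90.5), which encode membrane components of the hemidesmosome, were the most abundant. COL17A1 and LAMA3, a laminin subunit, had the smallest p without the block, with log2 changes of -0.04 and 0.08 (edgeR, adjusted p = 0.9995 each). With the block it was LAMB3, a partner subunit, and LAMA3, with 0.08 and 0.09 (edgeR, adjusted p = 0.5895 and 0.659).

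Among 16 regulators and partners of the epithelial to mesenchymal transition, 11 were tested. With the replicate block 1 of these passed, against 0.7% of all tested genes. An unadjusted p under 0.05 was found for 1 without and 3 with the block. The shares over all tested genes were 3.97% and 8.89%. The 3 were SNAI2, OVOL1 and GRHL2, and the log2 changes of OVOL1 and GRHL2 were -0.30 and -0.12 (edgeR with the block, adjusted p = 0.355 and 0.491). The gene that passed was SNAI2, a zinc-finger repressor of epithelial genes. It lies on chromosome 29 (1416068 to 1418591). It had 6.90, 7.54, 13.3 and 8.93 CPM in control and 10.7, 16.4, 16.7 and 13.6 CPM in stretch replicates 1 to 4. Control replicate 3 lay among the stretch wells. SNAI2 was higher after stretch in 4 of 4 pairs, which was so for 8.45% of all tested genes. Its log2 change was 0.66 ± 0.112 (SE, edgeR with the block, adjusted p = 0.00823). This call rests on the pairing of same-numbered wells, which is uncertain, as described with the processing below. Without the block the estimate was 0.65 ± 0.210 (adjusted p = 0.9995), and with a block of 2 levels (replicates 1 and 2, replicates 3 and 4) the adjusted p was 0.297. The call also ended when replicate number 1 or 4 was left out of the blocked fit (adjusted p = 0.0855 and 0.0766).

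SNAI1, its closest relative, was looked at after its values had been seen. It had 7.75, 8.16, 17.8 and 9.33 CPM in control and 13.1, 18.9, 15.4 and 13.7 CPM in stretch replicates 1 to 4. Control replicate 3, the same well that was highest for 5 of the 10 genes, was above 3 of the 4 stretch wells. The log2 change was 0.50 ± 0.263 (SE; edgeR, adjusted p = 0.9995). With the replicate block it was 0.56 ± 0.251 (edgeR, adjusted p = 0.668). Leaving out control replicate 3, the high control well, was bound to raise the estimate, which was then 0.86 ± 0.137 (edgeR, adjusted p = 0.0379).

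GRHL2, a transcription factor that maintains the epithelial state, was the only gene of this list with no overlap between groups, which was so for 2.55% of all tested genes. It stood at 8.37 ± 0.42 RPKM in control and 7.72 ± 0.296 RPKM in stretch wells (SD, n = 4 each), a log2 change of -0.12 ± 0.059 (SE; edgeR, adjusted p = 0.9995). FN1, the matrix protein fibronectin, and ESRP1, an epithelial splicing factor, were the most abundant of the list, at 40.4 and 32.8 RPKM, and neither passed. ZEB1 and CDH2, the repressor and the cadherin linked to mesenchymal cells, had 7 to 19 and 0 to 13 counts per well and were not tested. VIM and the epithelial keratins, the structural genes that such factors are known to act on, did not pass in the same wells, as described above.

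The genes whose level followed each of the 10 most closely over the 8 wells are given as a description, since the best of so many genes will match well by selection alone, and the points share wells and scaling. For KRT19 it was LOC119876943 (Pearson r of log2 CPM = 0.9995 over 8 wells). For DSG2 the closest were LTBP1, a latent TGF-beta binding protein (r = 0.993), and CD63, a tetraspanin (r = 0.986). They stood at r = 0.985 and 0.992 over 7 wells without control replicate 3. For DSP they were FZD2, a Wnt receptor (r = 0.979, and 0.887 without that well), and ABCB4 (r = 0.977). For PKP2 they were BCAM, an adhesion receptor for laminin (r = 0.977), and PLAU, the urokinase plasminogen activator (r = 0.966). The closest gene was XRCC5 for KRT7 (r = 0.953), E2F4 for KRT8 (r = 0.9445), CYBC1 for KRT18 (r = 0.954), TOMM20 for VIM (r = 0.972), ARID2 for DSC2 (r = 0.9795) and ZNF598 for PKP3 (r = 0.987).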

How the data were processed

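RNA from 8 wells was sequenced from stranded polyA libraries, per the labels' protocols. FastQC 0.11.8, Trim Galore 0.6.5, STAR 2.7.3a, Subread and featureCounts are named in the submitters' processing notes. The authors deposited raw counts per gene with each gene's exon length. The genome build, strand setting and treatment of reads with several matches are not given in the sources used here. Gene coordinates equal those of RefSeq assembly UU_Cfam_GSD_1.0 for all 37291 of the 37952 symbols that matched.

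Genes were filtered with filterByExpr (minimum count 10, minimum total 15), scaled by TMM and tested with edgeR 4.0.16 (robust quasi-likelihood, Benjamini-Hochberg over 14571 genes, threshold 0.05), using R 4.3.3. Log2 CPM used a prior count of 2. RPKM divides CPM by the deposited exon length in kilobases. Totals of 27047358 to 32478887 counts were tested with a biological coefficient of variation of 9.43% (6.12% with the block), to which counting error adds for low genes. Alternatives were DESeq2 1.42.0, limma 3.58.1 (voom), other scalings and filters, the replicate block and leaving out wells. The scripts were tested on simulated data.

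Deviations of same-numbered wells from their group means correlated at 0.328, 0.108, 0.182 and 0.178 for numbers 1 to 4, all above 0.1, so the numbers were taken to pair the wells. This comes from the data and not from the labels, and of the 4 control wells only replicate 1 correlated best with the stretch well of its own number, so the pairing that blocked values rest on is uncertain.

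The 10 genes and the lists were chosen with earlier results of these data known. From each list, the genes past the threshold in either fit, the 3 of highest level and the 2 of smallest p were named.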

Additional observations from a re-analysis of the deposited data

Results flagged for a closer look

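Of 42 groups of 4 wells examined, 3 held a well far from the other 3 by Dixon's criterion at its 95% level, where about 2.1 would be flagged by chance. KRT7 in stretch replicate 2 stood at 1144 CPM, above the other stretch wells and level with control replicate 4 (1143 CPM). VIM in stretch replicate 3 stood at 3053 CPM, the highest of all 8 wells. SNAI1 in control replicate 3 stood at 17.8 CPM, above the other control wells and 3 of the stretch wells.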

How the results depend on the processing

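None of the 10 genes passed under any of 26 alternatives, so the sign of a change in them carries no call. Over all genes, 0 passed without the block and 102 with the replicate block; 40 passed with DESeq2, 11 with no filter, 51 in replicates 1 and 2, 25 in replicates 3 and 4, and 58 with a block of 2 levels. With the replicate block, 111 passed by library size, 145 with DESeq2 and 448 with no filter. With 1 well or 1 same-numbered pair left out, 0 to 186 passed: at most 12 without the block (when control replicate 3 was left out) and up to 186 with it (when number 3 was). Of the genes named, the block fit in edgeR changed the call of SNAI2 only. Past the threshold were SNAI2 under 7, KRT80 under 6, SNAI1 under 4 and LAMA3 under 1 of 26 alternatives, each above 0 there.

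The sign of some log2 changes turned without any of them passing, and the cause was not tested. In replicates 1 and 2 alone, the value was 0.11 for KRT19, 0.037 for DSP, 0.013 for DSG2, 0.11 for PKP3, 0.040 for FAM83H and 0.039 for COL17A1. In replicates 3 and 4 alone, the value was -0.048 for KRT8, -0.014 for VIM and -0.056 for KRT15. The value of KRT7 was 2.4e-04 with DESeq2, 2.6e-04 with DESeq2 size factors, 0.0042 with upper-quartile factors, 0.0037 by library size, 0.0018 with no filter, 0.0037 with at least 10 counts in every well, 0.0022 in replicates 1 and 2 and 0.0029 in replicates 3 and 4. The value of KRT7 was 2.1e-04 with the replicate block, 0.0042 with the replicate block by library size, 5.7e-04 with the replicate block in DESeq2 and 0.0022 with the replicate block and no filter. The value of DSC2 was 0.0037 with upper-quartile factors, 0.0024 by library size, 0.0015 with at least 10 counts in every well and 0.036 in replicates 3 and 4. The value of DSC2 was 0.0020 with the replicate block by library size. With 1 well or 1 pair left out, the ranges were -0.019 to 0.018 for KRT7, -0.029 to 0.041 for KRT8, -0.079 to 0.041 for KRT19, -0.058 to 0.045 for VIM, -0.087 to 0.038 for DSP, -0.13 to 0.031 for DSG2, -0.068 to 0.10 for DSC2, -0.17 to 0.022 for PKP3, -9.4e-04 to 0.23 for LAMA3 and -0.095 to 0.046 for COL17A1.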
